A study of Homo sapiens with 6 samples.

Results

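The actin contractile and stress fibre genes are 45 named genes for actins, the proteins that decorate, motorise, cross-link, anchor, bundle and sever actin filaments, and the transcription factors that drive them. A gene was counted as a member where a row of the deposited expression table carried its name, which gave 44 members among 35856 rows. MYOCD was not analysed here. The RNA came from HCCLM3, an established human hepatocellular carcinoma cell line, in 2 groups of 3 libraries. These were control cells, labelled NC, and cells transfected with a vector carrying LINC00862, a long noncoding RNA. The study's sequencing methods do not describe the NC cells, and an empty vector was its control in other experiments. Whether the cells of a group were a clone or a pool, and whether its libraries came from separate cultures, is not stated, so the p-values measure the spread between these libraries, which may be technical. The comparison asks how the transcriptome of HCCLM3 differed when LINC00862 was overexpressed, here for the genes of the contractile actin cytoskeleton.

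Actin polymerises from monomers into filaments, and a stress fibre is a bundle of such filaments in which tropomyosins coat the filament, alpha-actinin and filamin cross-link it, and bipolar filaments of nonmuscle myosin II pull on it. Myosin light chain kinase switches the motor on by phosphorylating the regulatory light chain, and vinculin, talin and zyxin couple the bundle to adhesions through which the cell pulls on its matrix. Many of these genes are targets of serum response factor (SRF), which binds a DNA element called the CArG box together with myocardin-related coactivators, and these coactivators are held in the cytoplasm by monomeric actin. In liver cancer cells these genes are studied mostly for cell shape, migration and invasion.

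The total counts lay between 58241123 and 68229070 per library. LINC00862 had counts of 11, 21 and 6 in NC and 145, 121 and 76 in LINC00862, so the groups did not overlap, and it was 9.33-fold higher in LINC00862 (adjusted p = 0.000583 in edgeR's quasi-likelihood test). Markers of the labelled cell type were nearly absent in NC, SERPINA1 apart, and mostly higher in LINC00862. Albumin (ALB) was listed at 0, 0 and 0.0234 FPKM (mapped fragments scaled by transcript length and by library) in NC and at 1.61, 1.71 and 1.21 in LINC00862, and transferrin (TF) rose from 0.0380, 0.0314 and 0.0412 to 17.5, 16.8 and 12.2 FPKM. The summed FPKM of 7 hepatocyte markers lay between 1.15 and 1.79 in NC and between 14.1 and 19.8 in LINC00862, the latter mainly TF. Of 6 tested markers 5 were higher, but APOB, TTR and HNF4A stayed low in LINC00862, with means of 0.144, 0.464 and 0.0447 FPKM. SERPINA1 was lower, at 1.11, 1.22 and 1.53 FPKM in NC and 0.0751, 0.144 and 0.0658 in LINC00862. The smooth muscle markers, 3 of which are members, summed to 7.62 to 8.77 FPKM in NC and 3.27 to 3.93 in LINC00862, with 2 of 4 tested lower, mainly the smoothelin gene SMTN, and DES at 0 in every LINC00862 library. The fibroblast markers summed to 7.48 to 8.65 FPKM in NC and 11.8 to 15.7 in LINC00862, with 2 of 7 higher, mainly COL1A1, and PDGFRB lower at 4.41, 3.18 and 3.29 against 0.0465, 0.0675 and 0.0473 FPKM. The endothelial markers summed to 1.17 to 1.74 FPKM in NC and 4.44 to 5.89 in LINC00862, with CDH5 the 1 of 4 that rose, and the leukocyte markers to 2.82 to 3.60 and 9.08 to 15.1, with CD14 and CD68 the 2 of 5 that rose. Over all tested genes 34.4% rose and 29.8% fell. The counts of fibroblast, endothelial and leukocyte markers that rose, each of few genes, lay near that background. The part of the markers in the results was not tested. Since the groups were separate cells, an effect of the overexpression and a difference between the cells cannot be told apart. In bulk RNA fewer cells of a type and less RNA per cell cannot be told apart either.

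The contractile programme was lower in LINC00862 almost throughout. Together the members took 2.93% ± 0.199 (SD, n = 3) of all counts in NC and 0.526% ± 0.0452 (SD, n = 3) in LINC00862. In single libraries the share was 2.87%, 2.76% and 3.15% in NC and 0.551%, 0.552% and 0.473% in LINC00862, and the groups did not overlap (exact two-sided permutation test p = 0.1, the smallest that 3 libraries against 3 allow). Of the 41 members that passed the filter on low counts, 36 fell at an adjusted p under 0.05 in edgeR's quasi-likelihood test, where 29.8% of the 20741 tested genes fell. The 2 members that rose were MYH14 and PLS1, where 34.4% of all tested genes rose. The 3 tested members that did not pass were TPM3, MYL12A and LMOD1. Of all tested genes, 64.2% passed in either direction, so a call by itself was common in this comparison. At a fold of at least 2, 35 members fell against 20.9% of all tested genes and 1 rose against 28.9%.

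The median log2 fold change was -2.43 over the tested members and 0.11 over all tested genes. In 38 members every LINC00862 library had a lower FPKM than every NC library, which was so for 36.6% of all tested genes, and in MYH14 every LINC00862 library was higher, which was so for 34.4%. Of the 3638 tested genes whose FPKM averaged 10 or more, 44.2% fell and 28.5% rose, and of the 30 members above that level 28 fell and 0 rose. In the gene ontology terms that the table carries, 33 of the 44 members were listed under actin binding, 21 under focal adhesion, 18 under stress fiber and 15 under muscle contraction. Among all tested genes, 60 were listed under stress fiber. Without NC replicate 1, the NC library that stood apart from the other two by transcript length, 38 members fell and 2 rose.

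**Figure D1:**
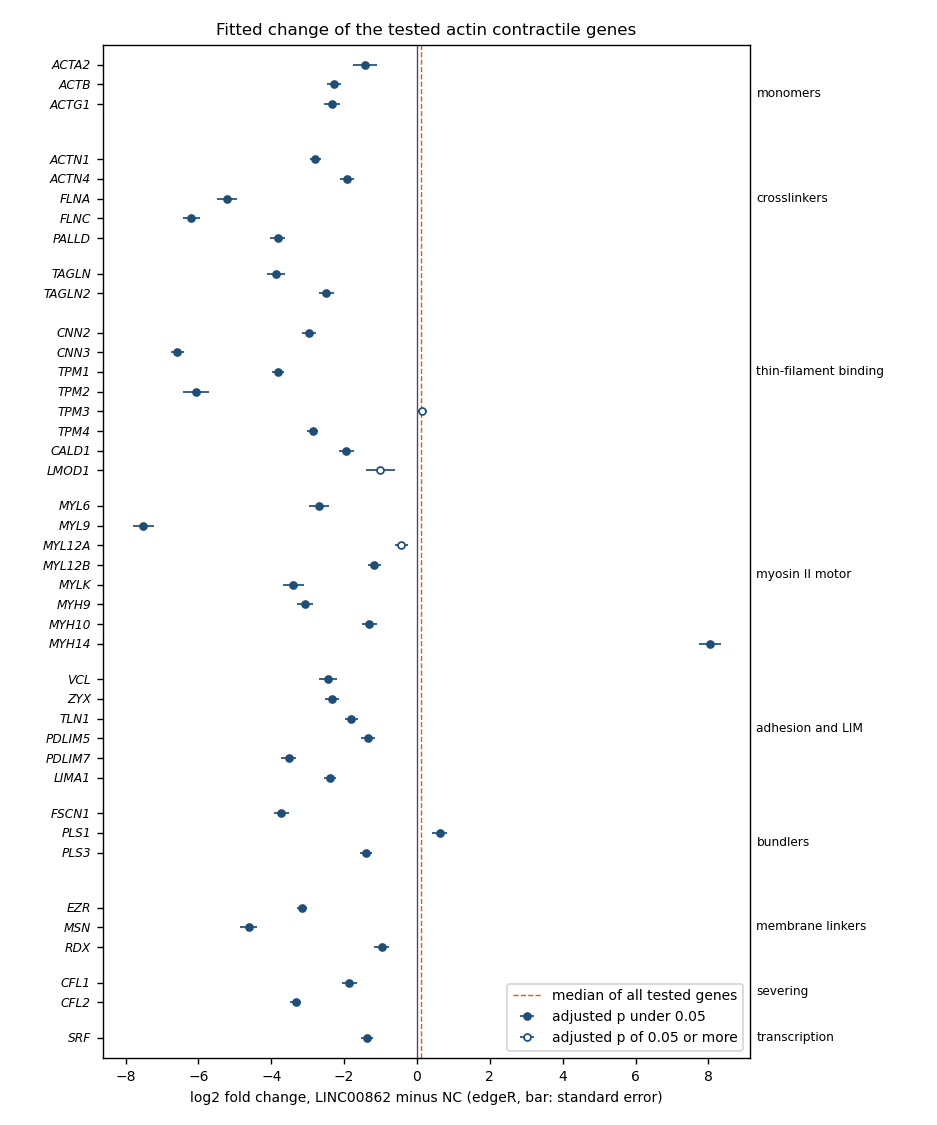
Fitted log2 fold change (LINC00862 minus NC, edgeR) of the 41 tested members, grouped by role, with bars for the standard error, open points for an adjusted p of 0.05 or more and a dashed line for the median of all tested genes (0.11). Nearly all points lie to the left of 0, from -0.43 for MYL12A to -7.51 for MYL9, while MYH14 stands alone at 8.04.

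The CArG box was looked for in the promoters, since SRF binds it and the members moved together. RefSeq promoter windows (GRCh38.p14, 250 bases before to 50 bases after an annotated start) were matched by symbol for 39 of the 45 genes. For each gene the window nearest to the first base of its span in the deposited table was taken, within 5000 bases, a limit set after the distances were seen. This left 35 members, since the nearest windows of MYH14, MYLK, TPM1 and TPM3 lay between 5857 and 263784 bases inside the span. The sequence after the start was found in a GENCODE transcript of the gene for 32 of the 35. The CArG box was searched on both strands, and its pattern reads the same on each. It stood in 6 of the 35 windows (17.1%), those of ACTG1, ACTG2, CNN2, FLNA, SRF and TPM4, and in 144 of 13924 windows in all (1.03%). The motif GGAATG, a core bound by TEAD factors and searched on both strands, stood in 8 of the 35 windows (22.9%) and in 11.5% of all, and it overlapped no CArG box in the members. The 200 bases before the start are shown for the 5 tested members with a CArG box, in capitals. The stretches are those of FLNA (chrX:154374635-154374834, minus strand), ACTG1 (chr17:81512800-81512999, minus strand), TPM4 (chr19:16067338-16067537, plus strand), CNN2 (chr19:1026408-1026607, plus strand) and SRF (chr6:43171069-43171268, plus strand). Their starts lay 4, 1841, 517, 22 and 0 bases inside the span of the gene, in that order.
FLNA promoter: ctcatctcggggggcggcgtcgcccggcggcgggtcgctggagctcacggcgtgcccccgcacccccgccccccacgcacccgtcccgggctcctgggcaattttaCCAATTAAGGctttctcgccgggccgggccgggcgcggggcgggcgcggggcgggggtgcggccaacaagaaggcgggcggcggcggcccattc
ACTG1 promoter: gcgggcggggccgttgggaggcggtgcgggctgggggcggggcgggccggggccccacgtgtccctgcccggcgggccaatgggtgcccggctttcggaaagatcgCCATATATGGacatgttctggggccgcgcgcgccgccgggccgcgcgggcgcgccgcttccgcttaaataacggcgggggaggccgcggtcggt
TPM4 promoter: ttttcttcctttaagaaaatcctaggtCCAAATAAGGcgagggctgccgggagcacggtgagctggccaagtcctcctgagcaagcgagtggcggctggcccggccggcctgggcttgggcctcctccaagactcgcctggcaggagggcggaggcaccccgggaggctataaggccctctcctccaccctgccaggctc
CNN2 promoter: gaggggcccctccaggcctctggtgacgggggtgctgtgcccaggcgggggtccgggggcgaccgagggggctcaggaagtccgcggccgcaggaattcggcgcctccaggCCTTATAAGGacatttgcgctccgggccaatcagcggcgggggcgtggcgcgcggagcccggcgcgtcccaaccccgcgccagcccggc
SRF promoter: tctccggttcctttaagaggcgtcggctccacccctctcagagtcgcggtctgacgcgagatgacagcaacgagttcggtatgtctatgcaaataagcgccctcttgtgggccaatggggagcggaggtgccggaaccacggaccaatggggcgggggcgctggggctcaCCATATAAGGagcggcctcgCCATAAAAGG

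The box began 94 bases before the start in FLNA and ACTG1, 89 in CNN2 and 173 in TPM4, and SRF carried 2 boxes, at 30 and 10 bases. All 5 tested carriers fell, with log2 fold changes from -5.22 to -1.38 and a median of -2.86. Among the 28 tested members with a window but no box, 25 fell and 1 rose, with a median of -2.36. Outside the members, 124 tested genes had a box, of which 39.5% fell and 30.6% rose, with a median of -0.28. Over the 11652 tested genes with a window these values were 36.2%, 32.2% and -0.08, so genes with a box but outside the members moved down about as often as genes in general. Many members are SRF targets and SRF is itself a member, so their higher share of boxes may come from that choice. A match in this window is a description and says nothing about binding.

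Both cytoplasmic actins fell. Beta-actin (ACTB, ENSG00000075624, chr7:5526409-5563902, minus strand, hg38) was at 881, 974 and 1139 FPKM in NC and 191, 181 and 181 in LINC00862. Gamma-actin (ACTG1, ENSG00000184009, chr17:81509971-81514640, minus strand) was the most abundant member, at 1853, 2049 and 2568 FPKM in NC and 413, 404 and 328 in LINC00862. The groups lay far apart for both genes, and the level was 4.82-fold lower for ACTB (log2 fold change -2.27 ± 0.19, standard error) and 5.06-fold lower for ACTG1 (-2.34 ± 0.21). The ratio of ACTG1 to ACTB FPKM was 2.15 ± 0.0872 (SD, n = 3) in NC and 2.07 ± 0.221 (SD, n = 3) in LINC00862, a difference within the spread (exact two-sided permutation test p = 0.8). ACTB is often used as a reference gene for normalising expression assays. Smooth muscle actin (ACTA2), a marker of contractile myofibroblasts, was low in every library, at 1.57, 1.51 and 1.76 FPKM in NC and 0.784, 0.416 and 0.382 in LINC00862, with LINC00862 replicate 1 above the other two of its group. It fell 2.70-fold (-1.43 ± 0.33), and the adjusted p of the 3 tested actins lay between 1.11e-05 and 0.00402. The span of ACTA2 overlaps FAS and STAMBPL1 on the other strand, which had more counts than ACTA2 in every library, and the sources do not state whether counting used strand, so the value for ACTA2 is uncertain. Enteric smooth muscle actin (ACTG2) had counts of 0, 0 and 4 in NC and 0, 0 and 0 in LINC00862 and was not tested.

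**Figure D2:**
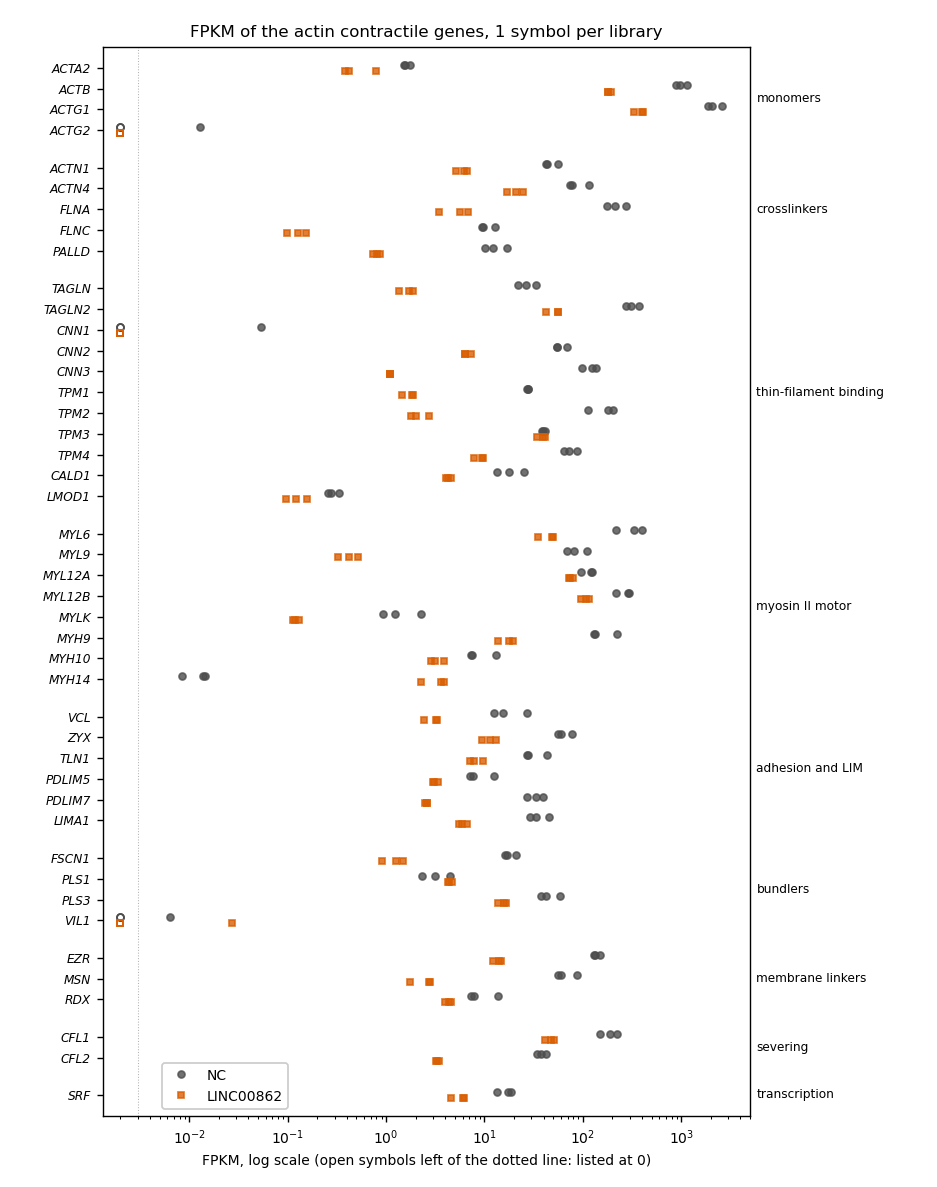
FPKM (log scale) of the 44 members with a row, grouped by role, 1 symbol per library, with circles for NC, squares for LINC00862 and open symbols at the left edge for genes listed at 0. The squares lie left of the circles in nearly every row, by the widest margins in MYL9, CNN3 and FLNC, and to the right in MYH14.

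Of the thin-filament genes, 8 of 10 tested members fell, by 3.83-fold to 95.4-fold, with adjusted p between 3.15e-08 and 3.16e-05. Tropomyosins wind along the filament and decide which proteins reach it. TPM2, the tropomyosin with most transcript in NC, was at 113, 178 and 203 FPKM in NC and 2.03, 1.79 and 2.75 in LINC00862, 66.6-fold lower (-6.06 ± 0.35). TPM1 was at 27.4, 27.4 and 27.5 FPKM in NC and 1.85, 1.9 and 1.44 in LINC00862, 14.1-fold lower (-3.82 ± 0.15), with NC libraries that hardly differed. TPM4, a cytoskeletal tropomyosin, was at 86.3, 72.3 and 63.9 FPKM in NC and 9.64, 9.53 and 7.89 in LINC00862 and fell 7.27-fold (-2.86 ± 0.16). TPM3 stood apart from its paralogs. It was at 40.9, 39.1 and 38.4 FPKM in NC and 39.5, 41.1 and 34.4 in LINC00862, the groups overlapped, and it differed by 0.13 ± 0.14 on the log2 scale (adjusted p = 0.432). The sign of the TPM3 value depended on the scaling, with -0.0331 under library size only and 0.34 with the length trend removed (adjusted p = 0.0128).

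The calponins bind the filament and restrain myosin. CNN3, the acidic calponin, had the largest fall among the thin-filament genes, with 137, 124 and 98.2 FPKM in NC and 1.10, 1.09 and 1.11 in LINC00862, 95.4-fold lower (-6.58 ± 0.19). CNN2 was at 54.8, 54.2 and 69.4 FPKM in NC and 6.41, 6.40 and 7.37 in LINC00862, 7.81-fold lower (-2.97 ± 0.19). Libraries of LINC00862 were within a narrow range for both. CNN1, the smooth muscle calponin, had counts of 0, 0 and 11 in NC and 0, 0 and 0 in LINC00862 and was not tested. TAGLN, also called SM22, a calponin relative used as a smooth muscle and SRF target marker, was at 22.1, 26.2 and 33.5 FPKM in NC and 1.88, 1.35 and 1.70 in LINC00862 and fell 14.7-fold (-3.87 ± 0.25). TAGLN2, its relative in non-muscle cells, was far more abundant per length in both groups, at 276, 308 and 376 FPKM in NC and 56.1, 55.3 and 42.4 in LINC00862, and fell 5.59-fold (-2.48 ± 0.19). Caldesmon (CALD1), which inhibits the myosin ATPase on the filament, was at 25.2, 17.9 and 13.3 FPKM in NC and 4.29, 4.57 and 4.03 in LINC00862, 3.83-fold lower (-1.94 ± 0.20). Leiomodin 1 (LMOD1), an actin nucleator of smooth muscle, was at only 0.259, 0.335 and 0.276 FPKM in NC and 0.0955, 0.122 and 0.158 in LINC00862. Its groups did not overlap, but its log2 fold change of -1.003 ± 0.41 did not pass (adjusted p = 0.0553). It passed without NC replicate 1 (adjusted p = 0.0475), without LINC00862 replicate 3 (0.0441), under library size only (0.0254) and under limma-trend on the log2 scale of FPKM with a pseudocount of 1 or 0.1 (0.00517 and 0.00698). The span of TAGLN overlaps PCSK7 on the other strand, whose counts were 1898, 2044 and 1878 in LINC00862 against 946, 589 and 750 for TAGLN, so the low end of TAGLN is uncertain in the same way as ACTA2.

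The myosin II motor held the only rise of more than 2-fold among the members. MYH9, the heavy chain of nonmuscle myosin IIA (ENSG00000100345, chr22:36281280-36387967, minus strand), was at 224, 132 and 130.0 FPKM in NC and 17.6, 19.4 and 13.6 in LINC00862, 8.43-fold lower (-3.08 ± 0.22), with NC replicate 1 the highest library. MYH10, the heavy chain of myosin IIB, was at 13.2, 7.51 and 7.35 FPKM in NC and 3.16, 3.90 and 2.88 in LINC00862 and fell 2.47-fold (-1.31 ± 0.21). MYH14, the heavy chain of myosin IIC (ENSG00000105357, chr19:50188186-50310542, plus strand), went the other way. Its counts were 11, 10 and 7 in NC and 2874, 2640 and 1567 in LINC00862, and its level was 0.0138, 0.0143 and 0.00838 FPKM in NC and 3.61, 3.84 and 2.25 in LINC00862. Every LINC00862 library was far above every NC library, and the fitted rise was 263-fold (8.04 ± 0.29, adjusted p = 8.76e-08), between 7.90 and 8.21 on the log2 scale without any 1 library. Even so, MYH14 in LINC00862 was below MYH9 per length in each library.

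The light chains ranged from a change that did not pass to the largest fall of any member. MYL9, a regulatory light chain of smooth muscle and stress fibre myosin (ENSG00000101335, chr20:36541497-36551447, plus strand), was at 68.8, 80.9 and 109 FPKM in NC and 0.422, 0.523 and 0.324 in LINC00862, 182-fold lower (-7.51 ± 0.30). MYL12B, another regulatory light chain, was at 219, 288 and 298 FPKM in NC and 116, 109 and 96.2 in LINC00862 and fell 2.24-fold (-1.17 ± 0.18). MYL12A, a close paralog in the same chromosome region, was at 96.5, 123 and 119.9 FPKM in NC and 79.1, 71.7 and 74.0 in LINC00862. The MYL12A groups did not overlap, yet its log2 fold change of -0.43 ± 0.17 did not pass (adjusted p = 0.0539). It passed without NC replicate 1 (adjusted p = 0.0033), under library size only (0.00917) and under limma-trend with a pseudocount of 1 or 0.1 (0.00853 and 0.00857). The essential light chain MYL6 was at 217, 334 and 401 FPKM in NC and 48.1, 50.0 and 35.3 in LINC00862, 6.44-fold lower (-2.69 ± 0.27), and its NC replicate 1 was the lowest of the NC libraries. The kinase MYLK was at 2.24, 1.25 and 0.930 FPKM in NC and 0.118, 0.113 and 0.131 in LINC00862, 10.5-fold lower (-3.39 ± 0.30), and in it NC replicate 1 was the highest. The 6 motor genes that fell had adjusted p between 1.38e-07 and 0.000517. Antisense or opposite-strand genes overlap MYL6 (SMARCC2), MYL9 (DLGAP4-AS1) and MYLK (MYLK-AS1), with counts up to 23.4%, 26.0% and 32.2% of the member's in 1 group.

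All 5 crosslinkers fell, with adjusted p between 1.31e-07 and 2.50e-05. Filamin A (FLNA, ENSG00000196924, chrX:154348524-154374638, minus strand), which links filaments into orthogonal networks, was at 272, 177 and 214 FPKM in NC and 5.59, 6.85 and 3.43 in LINC00862, 37.2-fold lower (-5.22 ± 0.28). Filamin C (FLNC), the muscle filamin, was at 12.9, 9.36 and 9.72 FPKM in NC and 0.0996, 0.127 and 0.154 in LINC00862 and fell 73.1-fold (-6.19 ± 0.24). The alpha-actinins, which space filaments in the fibre, had smaller folds than the filamins. ACTN1 was at 55.5, 42.9 and 42.3 FPKM in NC and 6.22, 6.63 and 5.15 in LINC00862, 6.91-fold lower (-2.79 ± 0.15). ACTN4 was at 116, 73.2 and 77.4 FPKM in NC and 20.7, 24.5 and 16.8 in LINC00862, 3.8-fold lower (-1.93 ± 0.19). Palladin (PALLD), a scaffold of dense bodies and fibres, was at 16.9, 12.1 and 10.1 FPKM in NC and 0.734, 0.808 and 0.861 in LINC00862 and fell 14.2-fold (-3.82 ± 0.20). Of these, PALLD overlaps CBR4 and DDX60L on the other strand, with counts up to 126% and 83.7% of its own in LINC00862.

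The 6 adhesion and LIM proteins fell as well, with adjusted p between 1.26e-06 and 0.000234. PDLIM7, a PDZ-LIM protein of stress fibres, fell most among them, at 27.1, 33.6 and 39.7 FPKM in NC and 2.63, 2.49 and 2.63 in LINC00862 and 11.5-fold lower (-3.52 ± 0.21). Its relative PDLIM5 was at 12.6, 7.70 and 7.19 FPKM in NC and 3.10, 3.38 and 2.99 in LINC00862 and fell 2.54-fold (-1.34 ± 0.19), the smallest change in the group. Vinculin (VCL), which strengthens adhesions under load, was at 27.2, 15.5 and 12.6 FPKM in NC and 3.23, 3.32 and 2.43 in LINC00862, 5.39-fold lower (-2.43 ± 0.25). Talin 1 (TLN1), which joins integrins to actin, was at 43.0, 27.7 and 27.4 FPKM in NC and 7.89, 9.68 and 7.21 in LINC00862, 3.48-fold lower (-1.80 ± 0.18). NC replicate 1 was the highest library for both. Zyxin (ZYX), a LIM protein recruited to strained fibres, was at 60.1, 55.4 and 77.5 FPKM in NC and 13.1, 11.5 and 9.38 in LINC00862, 5.07-fold lower (-2.34 ± 0.19), and the span of ZYX overlaps EPHA1 on the other strand, with counts up to 16.4% of its own. LIMA1, also called EPLIN, which bundles and stabilises filaments, was at 45.8, 33.2 and 28.9 FPKM in NC and 5.96, 6.69 and 5.58 in LINC00862, 5.20-fold lower (-2.38 ± 0.17).

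The bundlers of protrusions split. Fascin (FSCN1), the bundler of filopodia, was at 16.8, 16.3 and 21.1 FPKM in NC and 1.26, 1.49 and 0.905 in LINC00862, 13.2-fold lower (-3.72 ± 0.21, adjusted p = 9.96e-07). Plastin 3 (PLS3) was at 58.7, 41.9 and 38 FPKM in NC and 16.5, 15.8 and 13.7 in LINC00862, 2.65-fold lower (-1.41 ± 0.16, adjusted p = 6.17e-05). Plastin 1 (PLS1), the bundler of intestinal microvilli, was at 4.47, 3.14 and 2.30 FPKM in NC and 4.38, 4.71 and 4.29 in LINC00862, and its groups overlapped, with NC replicate 1 at the level of LINC00862. Its change of 0.62 ± 0.20 passed at adjusted p = 0.023. The PLS1 call was lost without NC replicate 2 (adjusted p = 0.0692), without LINC00862 replicate 1, 2 or 3 (0.0572, 0.0647 and 0.0681), under library size only (0.123) and under limma-trend on the log2 scale of FPKM with a pseudocount of 1 or 0.1 (0.12 and 0.112). Villin (VIL1), the other microvillus bundler, had counts of 0, 0 and 3 in NC and 0, 0 and 13 in LINC00862 and was not tested.

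The ERM proteins, which tie filaments to the plasma membrane, all fell. Ezrin (EZR) was at 148, 133 and 131 FPKM in NC and 14.0, 14.8 and 12.3 in LINC00862, 8.88-fold lower (-3.15 ± 0.14). Moesin (MSN) was at 87.5, 59.4 and 56.1 FPKM in NC and 2.79, 2.75 and 1.74 in LINC00862, 24.6-fold lower (-4.62 ± 0.23). Radixin (RDX) fell least, by 1.95-fold (-0.96 ± 0.21, adjusted p = 0.00295), from 13.7, 7.77 and 7.22 to 4.33, 4.58 and 3.97 FPKM, and ZC3H12C on the other strand had counts up to 35.9% of its own. The groups of all 3 were separate. Both cofilins, which sever filaments, fell too. CFL1 was at 149, 190.2 and 223 FPKM in NC and 50.4, 47.3 and 40.9 in LINC00862, 3.63-fold lower (-1.86 ± 0.21). CFL2, the muscle cofilin, was at 41.9, 37.5 and 34.1 FPKM in NC and 3.20, 3.29 and 3.48 in LINC00862, 10.02-fold lower (-3.32 ± 0.15). CFL1 overlaps MUS81 on the other strand, with counts up to 11.7% of its own. The transcription factor SRF itself was at 18.7, 13.5 and 17.4 FPKM in NC and 6.24, 6.10 and 4.60 in LINC00862 and fell 2.60-fold (-1.38 ± 0.16, adjusted p = 7.82e-05), a smaller change than that of most members.

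The make-up of most families of paralogs differed between the groups in every library. FPKM is per length, so the paralogs are given as shares of a family's summed FPKM, although the NC libraries kept trends on transcript length. Of 33 shares in 12 families, 28 had no overlap between the groups, each at the exact permutation p of 0.1, above 0.05 as any such test of 3 against 3 must be. The 5 others were those of ACTB, ACTG1, ACTG2, CNN1 and EZR. Where a family is a pair, each share mirrors the other, so such a shift was counted for both. A lack of overlap was common, since the FPKM of 36.6% of all tested genes was separate and lower in LINC00862, and that of 34.4% separate and higher. With the length trend of each library removed, the same 28 shares had no overlap. PDLIM5, whose transcript is far longer than that of PDLIM7, then differed by 33.0 percentage points in place of 33.1. TPM3 made up 13.05% ± 1.97 in NC and 74.7% ± 0.842 in LINC00862 of tropomyosin transcript (mean and SD of 3 libraries, here and for the shares that follow), while TPM2 went from 53.2% ± 9.74 to 4.35% ± 1.39. TPM1 went from 9.04% ± 1.06 to 3.36% ± 0.226 and TPM4 from 24.7% ± 6.72 to 17.6% ± 0.609. The difference for TPM4, -7.15 percentage points, rested in part on NC replicate 1 and was -3.41 without it. In FPKM the groups overlapped for TPM3, and its larger share came with lower levels of the other three.

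Among nonmuscle myosin heavy chains, MYH9 went from 94.6% ± 0.109 to 72.1% ± 0.581, MYH10 from 5.43% ± 0.110 to 14.2% ± 1.21 and MYH14 from 0.00741% ± 0.00250 to 13.7% ± 1.5. In the LINC00862 libraries MYH14 held 14.8%, 14.1% and 11.97% and MYH10 held 12.97%, 14.4% and 15.4%. Among the light chains, MYL9 went from 11% ± 1.05 to 0.186% ± 0.0364 and MYL6 from 39.9% ± 3.60 to 19.5% ± 2.25, and MYL12A and MYL12B together took the rest. Among calponins CNN2 went from 33.4% ± 6.94 to 85.9% ± 0.849, with CNN3 lower accordingly. In the ERM family RDX went from 4.37% ± 0.994 to 21.1% ± 0.841 and MSN from 31.2% ± 3.41 to 11.8% ± 1.87, while EZR was at 64.4% ± 4.40 in NC and 67.1% ± 1.04 in LINC00862 (exact permutation p = 0.5). For the actins the groups overlapped, with ACTG1 at 68.2% ± 0.866 in NC and 67.2% ± 2.44 in LINC00862 (exact permutation p = 0.8).

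**Figure D3:**
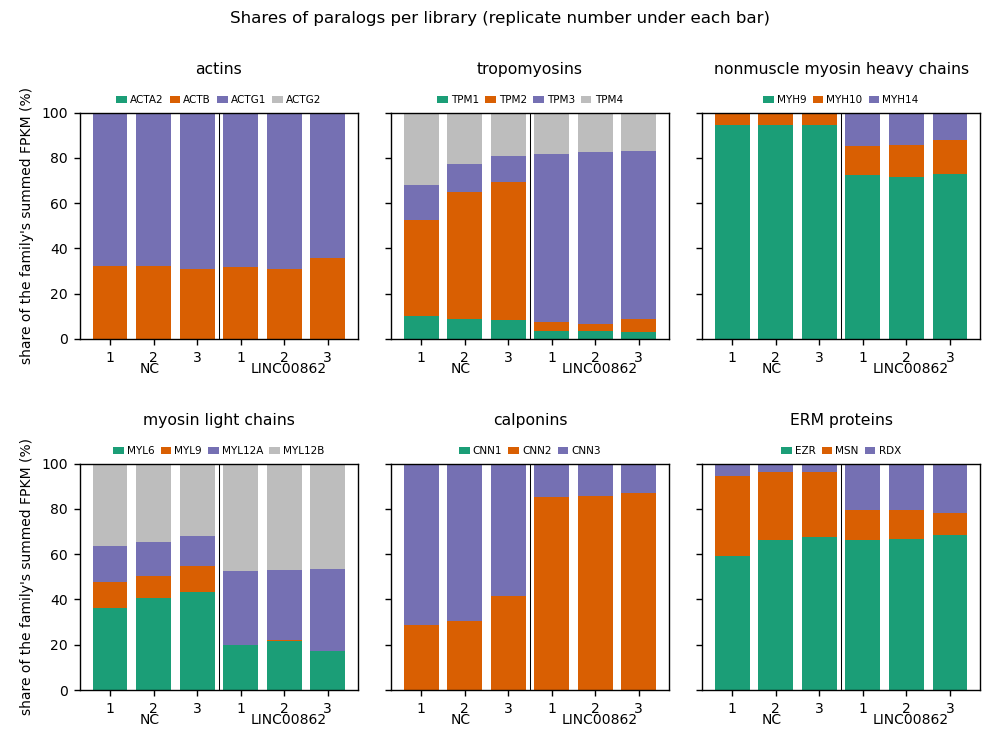
Share of each paralog in the summed FPKM of its family (percent, bars stacked to 100), 1 bar per library, for the 6 families with 3 or more members. The actin bars look alike in both groups, whereas TPM3 fills most of the LINC00862 tropomyosin bars (74.7%) and MYH14 is visible in the LINC00862 myosin bars only.

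Families with 2 members shifted as well. ACTN4 went from 65.2% ± 2.36 to 77.4% ± 1.13 of alpha-actinin transcript, and FLNC from 4.63% ± 0.357 to 2.62% ± 1.46 of that of both filamin members. In single libraries FLNC held 4.52%, 5.03% and 4.34% in NC and 1.75%, 1.82% and 4.31% in LINC00862, so LINC00862 replicate 3 was nearly at the NC level. CFL1 went from 82.8% ± 4.38 to 93.2% ± 0.962 of cofilin transcript, PDLIM5 from 21.9% ± 8.66 to 54.98% ± 2.36 of that of both PDZ-LIM members, and TAGLN2 from 92.2% ± 0.380 to 96.8% ± 0.740 of transgelin. PLS1 went from 6.59% ± 0.757 to 22.6% ± 1.5 of that of PLS1 and PLS3. That pair leaves out LCP1, the leukocyte plastin, which is no member. LCP1 was at 1.93, 1.69 and 1.96 FPKM in NC and 61.3, 66.9 and 46.0 in LINC00862 and rose 34.9-fold (5.13 ± 0.18). With it counted, LCP1 held 3.74% ± 0.844 of the 3 plastins in NC and 74.3% ± 2.31 in LINC00862. PLS1 then held 6.34% ± 0.778 in NC and 5.81% ± 0.777 in LINC00862, so its larger share was seen only with LCP1 left out.

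Several lists of related genes outside the members were also compared. Of 19 tested genes of a list of other MRTF-SRF targets, 15 fell (78.9%) and 3 rose (15.8%), with a median of -2.87, against 29.8% and 34.4% and a median of 0.11 over all tested genes. The largest falls were those of FHL1, a LIM protein (12.6, 10.2 and 9.67 FPKM in NC and 0.0739, 0.104 and 0.125 in LINC00862, -6.53 ± 0.25), CCN1, a matricellular protein (340.2, 357 and 348 FPKM in NC and 4.24, 4.28 and 4.44 in LINC00862, -6.16 ± 0.19), and TGFB1I1, a LIM protein of adhesions (9.85, 10.2 and 11.9 FPKM in NC and 0.143, 0.152 and 0.0975 in LINC00862, -6.13 ± 0.23). The 3 that rose were the immediate early gene FOS (7.51, 6.31 and 7.23 FPKM in NC and 41.3, 44.1 and 45.6 in LINC00862, 2.82 ± 0.15), CSRP2 (1.42 ± 0.19) and TPBG (0.64 ± 0.15). FOS is driven by SRF chiefly with another kind of cofactor, the ternary complex factors. This list also holds integrin and matrix genes that other pathways drive. EGR1, an immediate early gene like FOS, was the 1 that did not pass, at 60.1, 36.1 and 42.4 FPKM in NC and 41.2, 39.8 and 37.6 in LINC00862.

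In the list of filament turnover genes, 25 of 37 fell (67.6%) and 5 rose (13.5%), with a median of -1.01, where 29.8% of all tested genes fell and 34.4% rose. Its leading falls were those of the capping protein CAPG (36.1, 45.7 and 53.5 FPKM in NC and 0.404, 0.633 and 0.380 in LINC00862, -6.40 ± 0.28), the cyclase-associated protein CAP2 (-4.22 ± 0.30) and gelsolin, GSN (-3.86 ± 0.18). The Arp2/3 activators WASL (1.70 ± 0.17) and WASF3 (1.03 ± 0.21) and the coronin CORO1B (0.65 ± 0.19) rose.

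Among 18 tested paralogs of the members, 9 fell (50.0%) and 6 rose (33.3%), with a median of -0.92, and the share that rose was near the 34.4% of all tested genes, of which 29.8% fell. PDLIM4 (12.6, 14.5 and 18.3 FPKM in NC and 0.0856, 0.0516 and 0.0598 in LINC00862, -7.58 ± 0.30) and PDLIM1 (105, 115 and 138 FPKM in NC and 8.30, 6.98 and 7.14 in LINC00862, -3.83 ± 0.19) were among those that fell, both PDZ-LIM genes outside the members. Of the 6 rises only that of LCP1 reached a mean of 5 FPKM in a group.

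Microvillus genes moved in both directions. Of 15 tested, 7 rose (46.7%) and 5 fell (33.3%), with a median of 1.60. Over all tested genes 34.4% rose and 29.8% fell, so these counts of few genes lay near the background. The unconventional myosin MYO1D rose from 0.0286, 0.0318 and 0.0434 to 7.45, 8.99 and 5.03 FPKM (7.79 ± 0.29), the actin bundler MISP from 2.57, 2.43 and 2.97 to 18.1, 16.6 and 11.9 (2.71 ± 0.19) and BAIAP2L1, an adaptor that shapes protrusions, from 4.79, 4.36 and 4.71 to 13.7, 13.6 and 10.2 (1.60 ± 0.14). SLC9A3R1, the scaffold that binds ezrin (-2.52 ± 0.19), EPS8L2 (-2.38 ± 0.18) and SLC9A3R2 (-1.79 ± 0.22) fell. All called genes named from these lists had an adjusted p of at most 0.014 in edgeR's quasi-likelihood test.

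**Figure D4:**
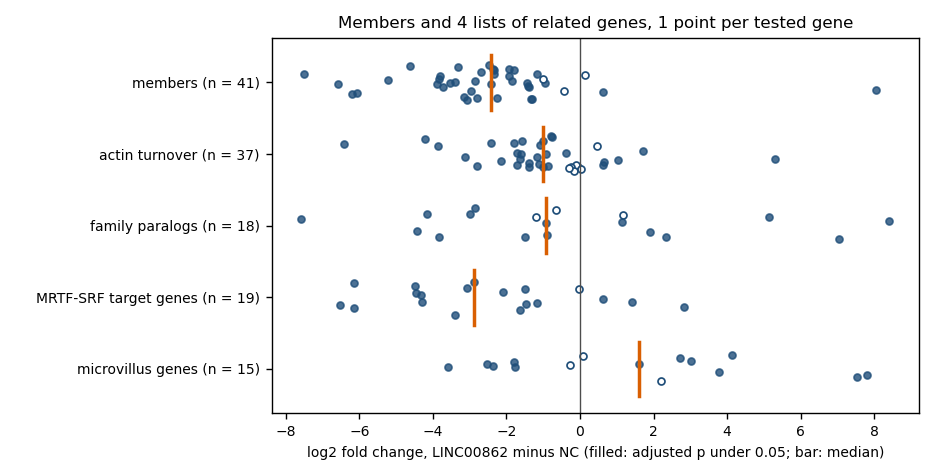
Fitted log2 fold change (LINC00862 minus NC) of the tested members and of 4 lists of related genes, 1 point per gene, filled where the adjusted p was under 0.05, with a bar for each median. The medians lie at -2.43 for the members, -2.87 for the MRTF-SRF targets, at -1.01 for turnover and -0.92 for paralog genes and at 1.60 for microvillus genes.

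The NC libraries differed from each other by transcript length, and the members showed it. For transcripts of 1000 nucleotides the trend, a log2 deviation from the mean of all libraries, was -0.276, 0.279 and 0.423 in NC replicates 1, 2 and 3. In LINC00862 it was -0.0802, -0.186 and -0.133. Leaving out NC replicate 1 thus kept the trend of the other NC libraries. NC replicate 1 was the highest NC library in 23 of the 41 tested members and the lowest in 12. Its FPKM over the mean of NC replicates 2 and 3 had a median of 1.497 in the 24 members with a longest coding transcript of at least 3000 nucleotides and of 0.803 in the 17 shorter ones. The Spearman correlation of the ratio with length was 0.80 over these 41 members, which share the same 3 libraries. The ratio was 2.06 for MYLK and 0.590 for MYL6. The median coefficient of variation over the tested members was 19.7% in NC and 12.8% in LINC00862. LINC00862 replicate 3 was the lowest of its group in 30 of 41 members. The same count over all tested genes was not made. The TMM scaling factor of that library was also the lowest of its group, at 0.891 against 0.957 and 0.989, so this need not be particular to the members. With the length trend of each library removed, 36 members still fell, 3 rose, TPM3 being the added one, and the median was -2.19.

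**Figure D5:**
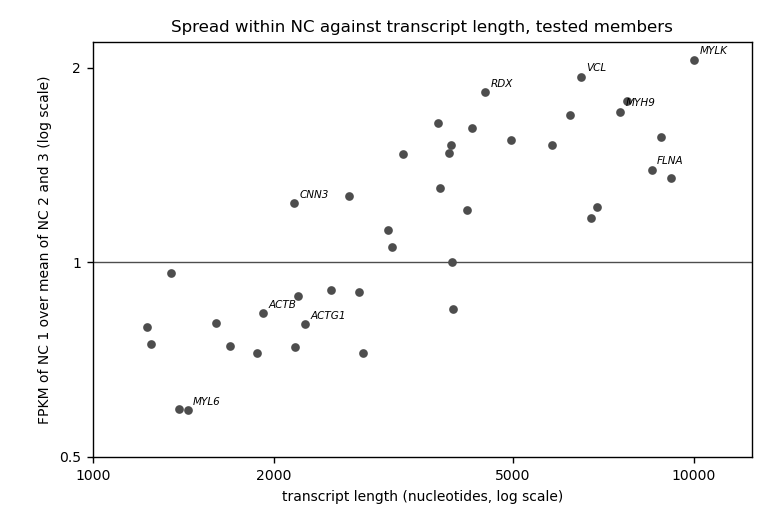
FPKM of NC replicate 1 over the mean of NC replicates 2 and 3 (log scale) against the length of the longest coding transcript in nucleotides (log scale), 1 point per tested member. Points rise from below 1 for short transcripts such as MYL6 (0.590) to 2.06 for MYLK.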

How the data were processed

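RNA from 6 HCCLM3 libraries was captured with oligo(dT), made into stranded libraries by dUTP marking and sequenced in pairs. The authors deposited unnormalised read counts for each gene, and FPKM, in which they divided fragments by transcript length and library size. The submitters' processing notes name cutadapt 1.9, HISAT2 2.0.4, UMI-tools, StringTie 1.3.4d, DESeq2, edgeR and hg38. The counting program, its use of strand and the annotation are not given in the sources used here. Columns with the authors' own fold changes and p-values were not used.

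Counts of all genes were filtered by filterByExpr, scaled by TMM and compared with edgeR 4.0.16's quasi-likelihood test in R 4.3.3, with Benjamini-Hochberg adjustment over the 20741 tested genes at 0.05. Standard errors were derived from the test statistic, and all values after ± beside a log2 fold change are such standard errors. Single values were compared by exact two-sided permutation. The fits were tested on simulated data, in which far fewer genes changed than here and rises and falls were balanced. That test does not cover a comparison with changes as wide as these. Total counts lay between 58241123 and 68229070. Members and lists were chosen with earlier results of these data known. Named are members with an adjusted p under 0.05, a fold of at least 2 and a mean of 100 counts in 1 group, always ACTB, ACTG1, ACTA2, MYH9, SRF and MYOCD, the other members more briefly, and per list the 3 largest rises and falls with a mean FPKM of at least 5. EGR1, DSTN and the markers were named after their values were seen. Results of 1 list and of 1 gene of another list are not reported here. Transcript lengths and 100-base windows came from GENCODE 29, and at most 3.23% of a member's windows (TPM4) were shared with another gene. Libraries with the same replicate number were not treated as pairs. Libraries of one group differed by more than sampling noise.

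Alternatives were DESeq2 1.42.0, upper quartile scaling, library size only, every gene with at least 1 count, a replicate block, leaving out each library, limma-trend (limma 3.58.1) with a pseudocount of 1 or 0.1 on the log2 scale of FPKM, a stricter threshold of 0.01, glmTreat against a 1.5-fold change and, chosen after seeing the data, removal of the length trend from the fit and from the paralog shares. Tables and figures used Python 3.11.15 and pandas 2.3.3.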

Additional observations from a re-analysis of the deposited data

How the results depend on the processing

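The 36 members that fell were 36 to 38 under every alternative, and the count with a fold of at least 2, 36 in either direction, was 35 to 38. The 2 members that rose were 1 under library size only, limma-trend on log2(FPKM + 1) and on log2(FPKM + 0.1), the test against a fold of 1.5 and the false discovery rate of 0.01, and 1 to 2 when a library was left out. PLS1 was the one lost. The median of the members, -2.43, was -2.21 under upper quartile scaling, -2.61 under library size only and -2.19 with the length trend removed. Upper quartile scaling moved the median of all tested genes from 0.11 to 0.32 and library size only moved it to -0.05, and the members' falls exceed both shifts. TPM3, not called, changed sign to -0.0331 under library size only, -0.0455 under limma-trend on log2(FPKM + 1) and -0.0467 on log2(FPKM + 0.1). Of 574 values of single members under the alternatives, 554 kept their direction and their side of the threshold. This tally leaves out the test against a fold of 1.5 and the false discovery rate of 0.01. The lists' counts of called genes moved by less than 1.5 times. No paralog share moved by more than 1 SD when a library was left out or the length trend was removed, ACTG2 and CNN1, both near 0, not counted. The difference in the TPM4 share, -7.15 percentage points, still ranged from -9.92 to -3.41 without 1 library, the latter without NC replicate 1.

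No pairing by replicate number was seen: deviations from the group means correlated at -0.0489, -0.0254 and -0.00737 across the groups. Whether libraries of the same number were grown or prepared together is not stated, and these values cannot decide it. With a replicate block 36 members fell, 2 rose and 12098 genes were called in place of 13321. Genes with few counts limit what can be said: CNN1, ACTG2 and VIL1 had at most 13 counts in a library, and absence cannot be read from them. The comparison rests on 3 libraries a group of 1 cell line.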
